A study of Mus musculus with 12 samples.

Results

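The clock output factors are genes that carry the rhythm of the circadian clock on to other genes. The 8 described here were taken by symbol: the PAR bZIP activators Dbp, Tef and Hlf, their repressor Nfil3, the DEC repressors Bhlhe40 and Bhlhe41, and the direct outputs Wee1 and Usp2. All 8 were found among the 38924 counted gene IDs, and all 8 passed the filter on low counts that left 16150 genes. Their levels were measured by mRNA sequencing of whole mouse kidney in 12 libraries, in 4 groups of 3. The wild-type (WT) and knockout (KO) groups were littermates on a C57BL/6J background, with kidneys taken at zeitgeber time 4 (ZT4, in the light) and at ZT16 (in the dark). Knockout mice were Bmal1lox/lox/Pax8-rtTA/LC1: from 8 weeks of age they drank 2 mg/ml doxycycline for 2 weeks, which turns on a Cre recombinase through the Pax8 promoter and inactivates Arntl, which encodes BMAL1, in renal tubule cells. Podocytes, vessels and other cells without Pax8 activity keep the gene, and they are part of every library. The littermates' alleles, whether they also drank doxycycline, the sex of the mice and the number of animals behind a library were not given in the sources used here. The p-values thus rest on the spread among libraries, part of which may be technical.

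BMAL1 and its partner CLOCK bind E-box sequences and activate their target genes. Among those targets are Dbp and its relatives, whose proteins bind D-box sequences and activate further genes, many of them for metabolism and detoxification in liver and kidney. NFIL3 (also called E4BP4) binds the same D-boxes and represses, and its gene is itself repressed by REV-ERB proteins through ROR response elements (ROREs). BHLHE40 and BHLHE41 (DEC1 and DEC2) bind E-boxes and oppose CLOCK and BMAL1. WEE1 is a kinase that holds back entry into mitosis, and USP2 removes ubiquitin from proteins, among them clock proteins and, in transfected cells, the epithelial sodium channel of the distal nephron.

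Promoter windows, from 250 bases before to 50 bases after a transcription start, were given in RefSeq (GRCm38.p6) for 6 of the 8 genes: Dbp, Tef, Hlf, Nfil3, Bhlhe41 and Usp2. They were searched on both strands for the E-box CACGTG, the variant E-box CACGTT, the D-boxes TTATGTAA and TTACGTAA, and the RORE cores TAGGTCA and TGGGTCA. Those with a match are printed 5′ to 3′ along the gene with the matched letters in capitals, and Dbp is printed for comparison as a gene with a large genotype difference and no match in this window. Positions are counted from the transcription start.
Dbp: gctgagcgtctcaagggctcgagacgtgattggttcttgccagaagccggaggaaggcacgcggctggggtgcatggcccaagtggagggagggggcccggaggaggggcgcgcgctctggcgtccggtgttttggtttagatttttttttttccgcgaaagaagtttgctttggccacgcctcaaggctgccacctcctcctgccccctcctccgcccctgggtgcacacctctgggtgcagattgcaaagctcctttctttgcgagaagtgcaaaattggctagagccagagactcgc
Tef, first start: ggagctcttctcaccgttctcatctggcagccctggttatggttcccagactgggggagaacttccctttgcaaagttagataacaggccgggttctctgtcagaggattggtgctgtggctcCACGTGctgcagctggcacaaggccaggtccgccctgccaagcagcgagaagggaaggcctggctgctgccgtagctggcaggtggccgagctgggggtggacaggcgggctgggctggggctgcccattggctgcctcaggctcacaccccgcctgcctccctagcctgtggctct
Tef, second start: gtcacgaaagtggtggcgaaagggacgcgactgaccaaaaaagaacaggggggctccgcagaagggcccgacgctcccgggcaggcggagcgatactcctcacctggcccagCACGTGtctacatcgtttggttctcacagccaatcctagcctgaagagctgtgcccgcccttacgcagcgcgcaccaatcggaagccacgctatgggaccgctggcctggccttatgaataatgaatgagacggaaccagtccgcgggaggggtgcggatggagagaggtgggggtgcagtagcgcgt
Nfil3: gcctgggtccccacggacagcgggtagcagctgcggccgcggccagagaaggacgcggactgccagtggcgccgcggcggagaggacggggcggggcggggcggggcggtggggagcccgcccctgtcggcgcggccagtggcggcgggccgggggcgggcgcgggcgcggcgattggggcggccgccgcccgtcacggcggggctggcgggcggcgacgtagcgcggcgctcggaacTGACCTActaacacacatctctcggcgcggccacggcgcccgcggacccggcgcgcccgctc
Bhlhe41: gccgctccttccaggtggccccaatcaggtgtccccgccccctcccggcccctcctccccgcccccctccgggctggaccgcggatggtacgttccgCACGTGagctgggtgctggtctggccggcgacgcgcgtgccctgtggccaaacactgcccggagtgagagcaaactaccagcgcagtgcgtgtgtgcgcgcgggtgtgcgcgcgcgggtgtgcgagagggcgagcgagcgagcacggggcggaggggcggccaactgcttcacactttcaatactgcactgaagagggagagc
The Dbp window is chr7:45704997-45705296 on the plus strand. The Tef windows are chr15:81802423-81802722 and chr15:81811164-81811463 on the plus strand, and each holds 1 E-box CACGTG, at -127 and at -138. The Nfil3 window, chr13:52980990-52981289 on the minus strand, holds 1 RORE core at -12, which reads TGACCTA along the gene. The Bhlhe41 window, chr6:145865371-145865670 on the minus strand, holds 1 E-box CACGTG at -153. None of the searched motifs was found in the windows of Dbp, Hlf or Usp2. The Usp2 window, chr9:44084670-44084969 on the plus strand, lies inside the annotated gene (44067021 to 44095627). The region at the start of that annotated gene was not searched. Of the 32851 windows of that length in the table, 7.15% hold CACGTG, 4.68% CACGTT, 1.06% a D-box and 6.45% a RORE core. The median G and C content of promoter windows was 52.7%. It was higher in the windows with a match: 64% and 62% for Tef, 81.7% for Nfil3 and 70.7% for Bhlhe41. Motif shares among windows of like content are not given. A match describes letters and does not show binding.

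Per library 25628887 to 38043491 counts were assigned to genes. KO ZT16 replicate 2 differed from the other 2 libraries of its group: in log2 CPM (counts scaled to library size), its score on the leading principal component was 43.0, against -9.73 and -11.8 for KO ZT16 replicates 4 and 6. Mitochondrial genes took 22.3% of its counts, against 14.1% and 14.0%. WT ZT16 replicate 5 had the highest score (49.0, against 29.8 and 25.1 for replicates 1 and 3) and a mitochondrial share of 22.4%, against 18.7% and 18.8%. For the 8 genes, results that change without either library are given both ways, and counts over other gene lists are also given without KO ZT16 replicate 2 where they change. Markers of the tubule segments, podocytes and endothelium were detected in every list, with none at 0 in all libraries. Arntl itself differed between KO and WT by -0.08 ± 0.14 (SE) on the log2 scale at ZT4, with an adjusted p of 0.777. At ZT16 it differed by 0.43 ± 0.15, with an adjusted p of 0.151. Its removed exons are not stated and other cells keep it, so these counts do not check the labels, and each direction below rests on them.

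Per kilobase of exon, Tef was the highest of the 8 in WT kidneys at ZT4, with 27.8 ± 3.67 CPM per kb (mean ± SD, n = 3). Usp2 (17.1 ± 0.635 CPM per kb) and Bhlhe40 (14.2 ± 1.94) followed, then Dbp (9.54 ± 1.52) and Hlf (9.19 ± 1.36). Wee1 (1.75 ± 0.124 CPM per kb) and Bhlhe41 (0.289 ± 0.0940) were the lowest, below Nfil3 at 2.56 to 3.76. Bhlhe41 rested on 37 to 90 counts a library, so a change in it could be measured only coarsely. The other 7 genes had 138 to 8729 counts a library. Levels per kb, and the sums, ratios and shares made from them below, depend on the annotated exonic length. It was 7867 bases for Tef, 2993 for Dbp, 6681 for Hlf and 2026 for Nfil3, and may differ from the length of the transcripts present.

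**Figure D1:**
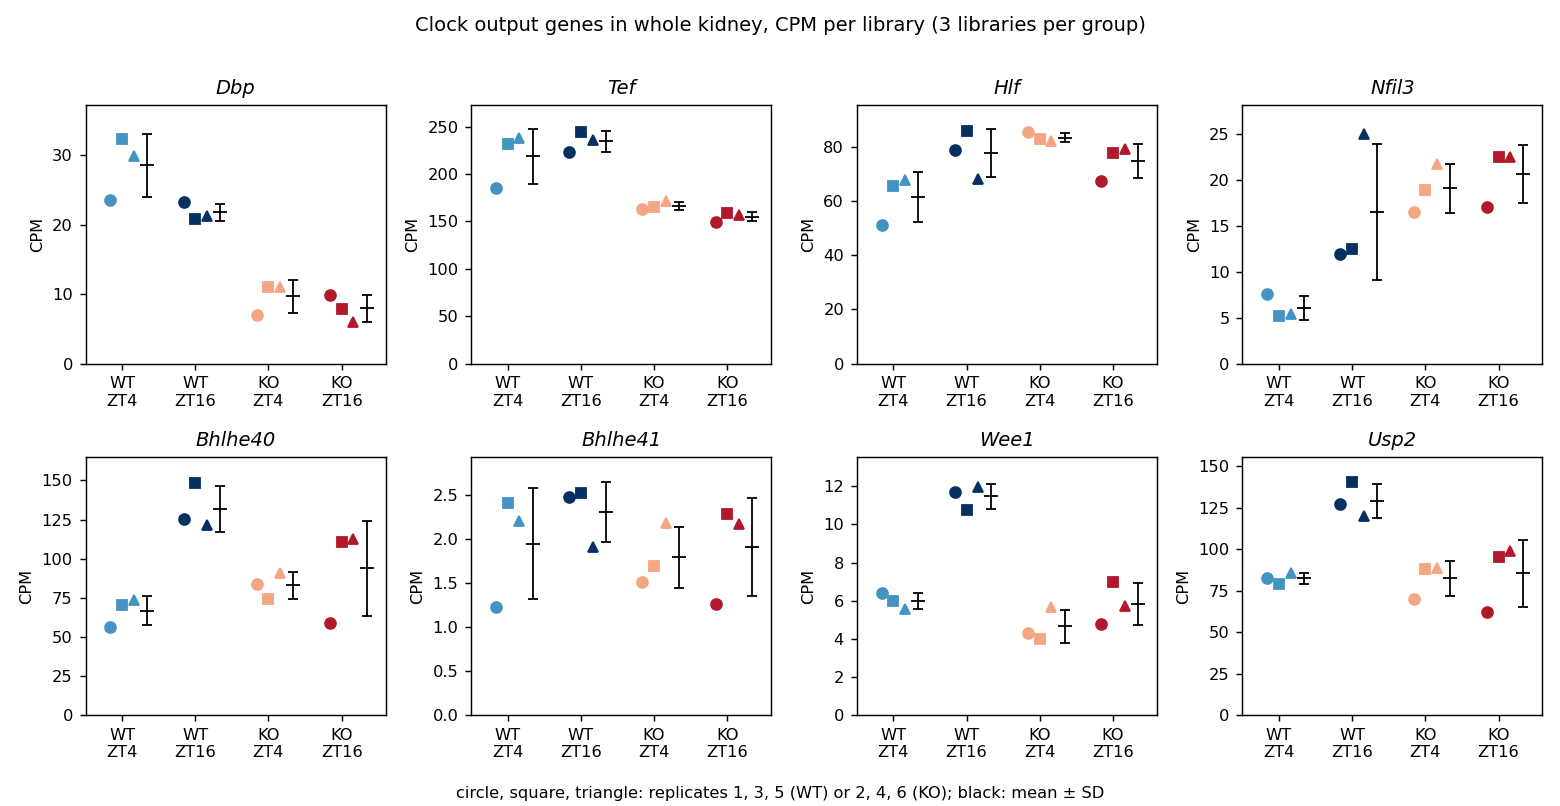
CPM of the 8 clock output genes (y axes, each from 0) in every library of the 4 groups (x axes), with symbols for the 3 replicates and black bars for the mean ± SD. Dbp and Tef lie lower in KO at both times and Wee1 at ZT16, with no overlap of libraries. Nfil3 lies at 5.19 to 7.62 CPM in WT ZT4 and at 16.5 to 21.8 in KO ZT4.

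In the knockout at ZT4, 3 of the 8 genes changed: the activators Dbp and Tef fell, and the repressor Nfil3 rose. The call is an adjusted p under 0.05 in the edgeR quasi-likelihood test over all 16150 genes, which 3.29% of genes passed (1.63% higher and 1.66% lower). At ZT16 again 3 of the 8 changed, Dbp, Tef and Wee1, all lower, against 4.03% of all genes (2.07% higher and 1.96% lower). The median log2 fold change of the 8 genes was -0.06 at ZT4 and -0.54 at ZT16, beside 0.00 and 0.02 over all genes. Their median absolute change was 0.38 and 0.54, beside 0.18 and 0.15 over all genes. In bulk tissue, fewer cells of a type and less RNA per cell cannot be told apart.

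Dbp (ENSMUSG00000059824, GRCm38 chromosome 7, 45705088 to 45710203) encodes the founding PAR bZIP activator. Here and below, values of a group follow the replicate numbers, 1, 3 and 5 in WT and 2, 4 and 6 in KO. Its CPM was 23.5, 32.3 and 29.9 in the WT ZT4 libraries and 6.97, 11.1 and 11.1 in the KO ZT4 libraries. In the dark the WT libraries held 23.2, 20.9 and 21.3 CPM and the KO libraries 9.85, 7.93 and 6.08 CPM. Every knockout library lay below every wild-type library. The log2 fold change was -1.56 ± 0.20 at ZT4 (2.95-fold lower, adjusted p = 0.000847) and -1.45 ± 0.20 at ZT16 (2.74-fold lower, adjusted p = 0.00115), n = 3 against 3. Sphk2, a sphingosine kinase gene, lies on the opposite strand and shares 539 exonic bases with Dbp, 18.0% of the exonic length of Dbp. Because the strand setting of the counting is unknown, reads from these bases may have been dropped as ambiguous or assigned to the other gene. Sphk2 itself had log2 fold changes of 0.11 ± 0.11 at ZT4 (adjusted p = 0.594), and the ZT16 value was 0.25 ± 0.11 (adjusted p = 0.28). Shared exonic bases on the opposite strand also exist for Bhlhe41 with Gm43909 (19.0% of Bhlhe41), Usp2 with Gm49380 and Gm39325 (4.15%), Bhlhe40 with 0610040F04Rik (2.51%) and Tef with Gm17597 (2.45%).

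Tef (ENSMUSG00000022389, chromosome 15, 81802421 to 81826863), the most abundant of the activators, fell by less. The WT ZT4 libraries had 185, 232 and 238 CPM and the KO ZT4 libraries 164, 165 and 172 CPM. WT ZT16 had 223, 245 and 236 CPM and KO ZT16 had 149.6, 159 and 156 CPM. Neither pair of genotypes overlapped, although WT ZT4 replicate 1 lay close to the knockout. The log2 fold change was -0.39 ± 0.09 at ZT4 (adjusted p = 0.0423), and the ZT16 value was -0.60 ± 0.09 (adjusted p = 0.00305). The ZT4 call did not hold in 10 of 12 fits that each left out 1 library, where the adjusted p was 0.0561 to 0.168. It held without WT ZT4 replicate 1 (-0.49, adjusted p = 0.00848) and without KO ZT16 replicate 2 (adjusted p = 0.00795). The ZT16 call held in all 12.

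Hlf (ENSMUSG00000003949, chromosome 11, 90336536 to 90390895), the third activator, did not fall. It had 51.0, 65.3 and 67.8 CPM in WT ZT4 and 85.3, 82.9 and 81.9 CPM in KO ZT4, so that the knockout libraries were the higher ones at ZT4. The ZT16 libraries overlapped, with 78.7, 85.8 and 68.2 CPM in WT and 67.4, 77.8 and 79.0 CPM in KO. The log2 fold change at ZT4 was 0.44 ± 0.12 (95% interval 0.19 to 0.70, adjusted p = 0.0644), which missed the threshold. It passed without KO ZT16 replicate 2 (0.44, adjusted p = 0.0114), which enters this comparison only through the shared estimate of the spread, and in DESeq2 (0.43, adjusted p = 0.0185). The value at ZT16 was -0.05 ± 0.12 (adjusted p = 0.875), and it turned to 0.0030 without KO ZT16 replicate 2 and to 0.014 without WT ZT16 replicate 3.

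Nfil3 (ENSMUSG00000056749, chromosome 13, 52967209 to 52981073) encodes the D-box repressor. It had 7.62, 5.19 and 5.45 CPM in WT ZT4 and 16.5, 18.9 and 21.8 CPM in KO ZT4. In the dark it had 11.9, 12.5 and 25.0 CPM in WT and 17.0, 22.5 and 22.5 CPM in KO. At ZT4 the knockout libraries were all higher, while at ZT16 WT replicate 5 lay above every knockout library. Nfil3 rose 3.12-fold at ZT4 (log2 1.64 ± 0.27, adjusted p = 0.00508). Its log2 difference at ZT16 was 0.33 ± 0.25 (adjusted p = 0.573), 0.75 without WT ZT16 replicate 5 (adjusted p = 0.0708), 0.44 without KO ZT16 replicate 2 (adjusted p = 0.189) and 0.87 without both (adjusted p = 0.00167).

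The DEC genes did not pass the test in either comparison of genotypes. Bhlhe40 (ENSMUSG00000030103, chromosome 6, 108660629 to 108666925) had 56.5, 70.3 and 73.6 CPM in WT ZT4 and 84.1, 73.9 and 91.0 CPM in KO ZT4. The WT ZT16 libraries held 125.5, 148 and 121 CPM and the KO ZT16 libraries 59.0, 110.5 and 112 CPM. The groups did not overlap at either time, narrowly so at ZT4, with the knockout higher at ZT4 and lower at ZT16. The log2 differences were 0.31 ± 0.20 (adjusted p = 0.418) and -0.49 ± 0.20 (adjusted p = 0.259), and the ZT16 value was -0.25 without KO ZT16 replicate 2 (adjusted p = 0.116), the lowest library. Without that library and WT ZT16 replicate 5, the ZT4 value of 0.31 passed (adjusted p = 0.0381). Bhlhe41 (ENSMUSG00000030256, chromosome 6, 145858243 to 145865558) had 1.22 to 2.41 CPM in WT ZT4, 1.51 to 2.18 in KO ZT4, 1.91 to 2.52 in WT ZT16 and 1.27 to 2.28 in KO ZT16. All its groups overlapped, and its 95% intervals of the log2 difference were -0.72 to 0.48 at ZT4 and -0.87 to 0.33 at ZT16.

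Of the direct outputs, Wee1 changed at ZT16. Wee1 (ENSMUSG00000031016, chromosome 7, 110122046 to 110143286) had 6.39, 5.98 and 5.55 CPM in WT ZT4 and 4.33, 4.0 and 5.65 CPM in KO ZT4, which overlapped in 1 library. The ZT16 groups were apart, at 11.7, 10.7 and 12.0 CPM in WT and 4.79, 6.97 and 5.71 CPM in KO. The log2 fold change was -0.37 ± 0.16 at ZT4 (adjusted p = 0.249) and -0.97 ± 0.15 at ZT16 (1.96-fold lower, adjusted p = 0.00325). Without KO ZT16 replicate 2 the ZT16 value was -0.86 (adjusted p = 0.00115).

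Usp2 (ENSMUSG00000032010, chromosome 9, 44067021 to 44095627) had nearly the same mean in both genotypes at ZT4. It had 82.5, 79.2 and 85.4 CPM in WT ZT4 and 70.1, 88.1 and 88.9 CPM in KO ZT4, with a log2 difference of 0.00 ± 0.15 (95% interval -0.33 to 0.33, adjusted p = 0.999). The sign of that value turned in several alternatives, RLE and upper-quartile scaling among them. Every knockout library was lower at ZT16, with 62.3, 95.5 and 98.8 CPM against 127, 140.2 and 119.8 CPM in WT. The log2 difference of -0.59 ± 0.15 just missed the threshold (adjusted p = 0.0529). It passed in DESeq2 (-0.59, adjusted p = 0.00944), in limma voom (-0.62, adjusted p = 0.0462), without KO ZT16 replicate 6 (-0.71, adjusted p = 0.0489) and without KO ZT16 replicate 2 (-0.42, adjusted p = 0.00711).

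**Figure D2:**
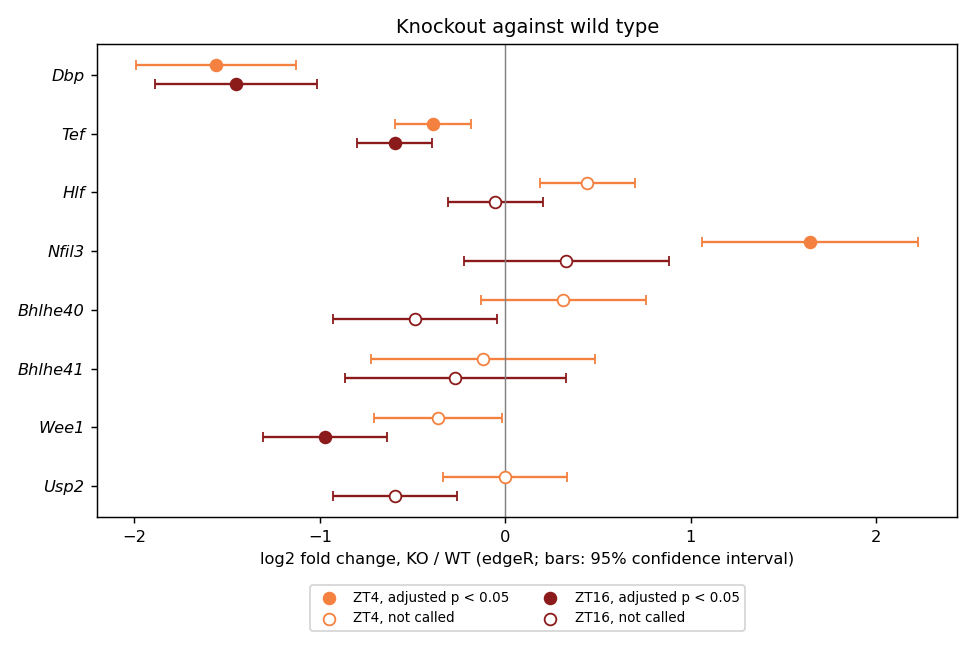
Log2 fold change of KO against WT (x axis) for each gene (y axis) at ZT4 (orange) and ZT16 (dark red), with 95% confidence intervals from the edgeR fit. Filled points passed adjusted p under 0.05: Dbp (-1.56), Tef (-0.39) and Nfil3 (1.64) at ZT4, and Dbp (-1.45), Tef (-0.60) and Wee1 (-0.97) at ZT16.

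Other measures moved with genotype at ZT4. Mitochondrial genes took 12.6% to 12.8% of the counts in KO ZT4 and 16.3% to 18.0% in WT ZT4, and the summed level of 4 thick ascending limb markers was 4605 to 4745 CPM in KO ZT4 and 5537 to 6145 CPM in WT ZT4, with 1 of the 4 called lower and none at 0. Summed marker levels were also lower in every KO ZT4 library for endothelium (289 to 301 CPM, against 328 to 355 in WT ZT4), mesenchyme (220 to 229, against 230 to 268) and leukocytes (22.6 to 24.4, against 25.4 to 34.7). They were higher in every KO ZT4 library for podocytes (261 to 274 CPM, against 209.7 to 257), principal cells (326 to 353, against 279 to 312) and, narrowly, the distal convoluted tubule (646.3 to 696, against 483 to 645.9). None of the markers of these 6 cell types was called. The sums of proximal tubule, intercalated cell and adipocyte markers overlapped at ZT4, and at ZT16 those of all the cell types overlapped. With mitochondrial genes left out the number of genes called among the 8 was again 3 at each time. The part of segment composition in the differences was not tested.

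Between ZT4 and ZT16 in wild-type kidneys, 4 of the 8 genes rose and none fell: Nfil3, Bhlhe40, Wee1 and Usp2. Over all genes 6.5% were called, 2.87% higher and 3.63% lower (463 and 587 genes, or 398 and 796 with upper-quartile scaling). The ZT4 and ZT16 wild-type libraries are the same ones as in the genotype comparisons, so these values are not independent of them. Nfil3 rose 2.70-fold, from 6.09 ± 1.33 to 16.5 ± 7.40 CPM (mean ± SD, n = 3; log2 1.43 ± 0.27, adjusted p = 0.0117). The value was 1.01 without WT ZT16 replicate 5 (adjusted p = 0.0258), and the call was lost without WT ZT4 replicate 5 (1.36, adjusted p = 0.0668). Bhlhe40 rose 1.97-fold, from 66.8 ± 9.12 to 132 ± 14.6 CPM (log2 0.98 ± 0.21, adjusted p = 0.0191). Wee1 rose 1.92-fold, from 5.97 ± 0.424 to 11.5 ± 0.652 CPM (log2 0.94 ± 0.15, adjusted p = 0.00609). Usp2 rose 1.57-fold, from 82.4 ± 3.06 to 129 ± 10.3 CPM (log2 0.65 ± 0.15, adjusted p = 0.0306).

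For each of these 4 genes, every WT ZT16 library lay above every WT ZT4 library. Hlf was separated in the same way and Dbp in the other direction, though neither was called. The share of all genes so separated, here or between genotypes, is not given. Such separation thus describes the values and is no further test. Over all genes 29.3% had an unadjusted p under 0.05 in this comparison. The call of Wee1 held in all 12 fits that left out 1 library. That of Bhlhe40 was lost in 4 of them (without WT ZT4 replicate 1 or 5, or WT ZT16 replicate 3 or 5; adjusted p 0.0513 to 0.0717), and that of Usp2 was lost when any 1 of the 6 wild-type libraries was left out (adjusted p 0.0731 to 0.103). The number of the 8 called therefore fell to 1 without WT ZT4 replicate 5 and to 2 without WT ZT4 replicate 1, WT ZT16 replicate 3 or WT ZT16 replicate 5. The PAR bZIP genes did not pass. Only ZT4 and ZT16 were sampled, so in either genotype a rhythm whose peak and trough lie between these times could be missed. Dbp was at -0.39 ± 0.19 (adjusted p = 0.192; its antisense neighbour Sphk2 fell by 0.44, adjusted p = 0.0339), Tef at 0.10 ± 0.09 (adjusted p = 0.47) and Hlf at 0.34 ± 0.12 (adjusted p = 0.0942, or 0.0181 without KO ZT16 replicate 2). Bhlhe41 was at 0.26 ± 0.27 (adjusted p = 0.537).

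Between the same times in the knockout, none of the 8 genes was called by edgeR, and none had an unadjusted p under 0.05. Over all genes 10.5% were called (5.27% higher and 5.2% lower), and 36.3% had an unadjusted p under 0.05. DESeq2 and limma voom also called 0 of the 8, with 1 at an unadjusted p under 0.05 in each. The log2 differences ranged from -0.28 (Dbp) to 0.33 (Wee1). Nfil3 was at 0.12 (95% interval -0.43 to 0.67), Bhlhe40 at 0.18 (-0.26 to 0.62), Wee1 at 0.33 (-0.01 to 0.68) and Usp2 at 0.05 (-0.28 to 0.39). These intervals leave room for rises up to about the upper bounds given. Without KO ZT16 replicate 2, Bhlhe40 passed (0.42 ± 0.12, adjusted p = 0.041), Wee1 was at 0.46 (adjusted p = 0.0755) and Usp2 at 0.23 (adjusted p = 0.152).

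**Figure D3:**
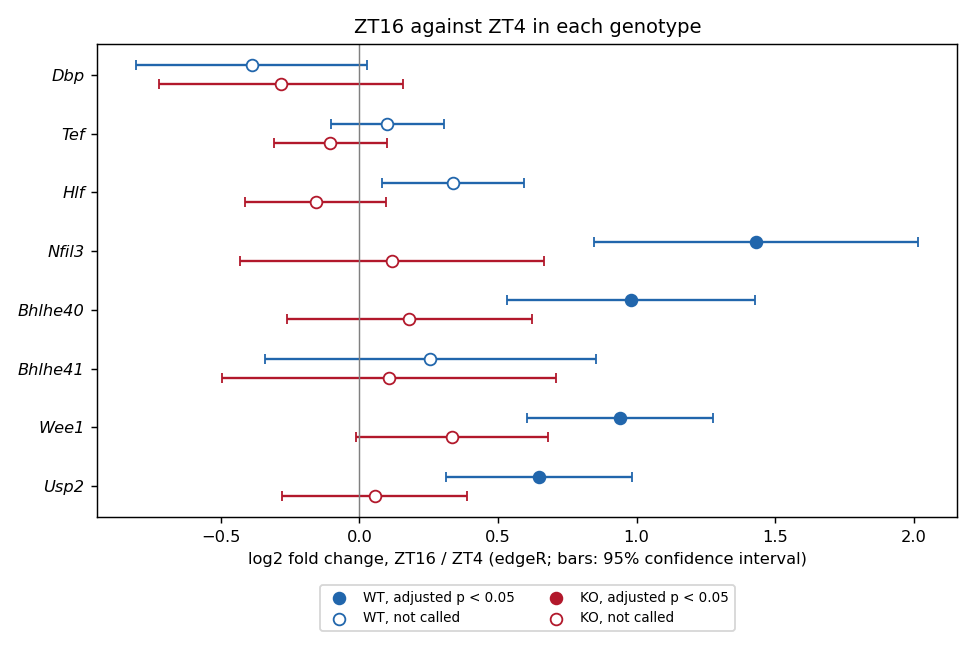
Log2 fold change of ZT16 against ZT4 (x axis) for each gene (y axis) in WT (blue) and KO (red), with 95% confidence intervals. Nfil3 (1.43), Bhlhe40 (0.98), Wee1 (0.94) and Usp2 (0.65) passed in WT (filled), and none passed in KO.

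A call in one genotype and none in the other does not show a difference, which the interaction term tests. None of the 8 genes passed it, with an adjusted p of 1 for each, and 0.0186% of all genes did (3 genes). At an unadjusted p under 0.05, 5 of the 8 stood out, against 3.34% of all genes: Nfil3 (-1.31 ± 0.37), Hlf (-0.50 ± 0.17), Bhlhe40 (-0.80 ± 0.29), Wee1 (-0.61 ± 0.22) and Usp2 (-0.59 ± 0.22). In these edgeR values a negative sign means a smaller rise, or a fall, from ZT4 to ZT16 in the knockout. DESeq2 and limma voom gave the same counts, 0 called and 5 at an unadjusted p under 0.05. Dbp (0.11 ± 0.28), Tef (-0.21 ± 0.13) and Bhlhe41 (-0.15 ± 0.39) did not reach that p. Without KO ZT16 replicate 2 the adjusted p of the 8 genes ranged from 0.29 to 0.965, and the value of Bhlhe40 was -0.57. The value of Nfil3 was -0.90 ± 0.25 without WT ZT16 replicate 5 and -0.77 ± 0.20 without both libraries.

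The activators and their repressor compete for D-boxes, so their levels were also set against each other per kilobase of exon, as a description of mRNA. The sum of Dbp, Tef and Hlf divided by Nfil3 was 10.4, 19.6 and 18.7 in the WT ZT4 libraries and 8.14, 8.24 and 3.82 in the WT ZT16 libraries. It was 4.40, 3.97 and 3.51 in KO ZT4 and 3.85, 3.10 and 3.04 in KO ZT16. All KO ZT4 libraries lay below all WT ZT4 libraries, whereas WT ZT16 replicate 5 fell within the range of the knockout libraries at ZT16. At ZT4 the numerator moved less than Nfil3: the summed activator level was 39.0 to 50.4 CPM per kb in WT and 35.9 to 37.8 in KO, while Nfil3 was at 2.56 to 3.76 in WT and 8.16 to 10.8 in KO. At ZT16 the sum did not overlap between genotypes and Nfil3 did. The sum was 47.3 to 50.9 in WT ZT16 and 32.4 to 34.5 in KO ZT16, and Nfil3 was at 5.89 to 12.4 and 8.41 to 11.1 CPM per kb.

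The make-up of that sum differed between the genotypes. Dbp gave 19.8% to 21.6% of the summed level in WT ZT4 and 6.49% to 9.96% in KO ZT4, and 13.7% to 16.2% in WT ZT16 and 6.02% to 10.2% in KO ZT16. Hlf gave 19.5% to 20.1% in WT ZT4 and 32.5% to 35.6% in KO ZT4, and 21.6% to 25.2% in WT ZT16 and 31.1% to 35.1% in KO ZT16. Tef gave 56.6% to 63.3% in every library. WT ZT4 replicate 1, which had the lowest Tef and Hlf of its group, had nearly the same shares as its replicates.

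**Figure D4:**
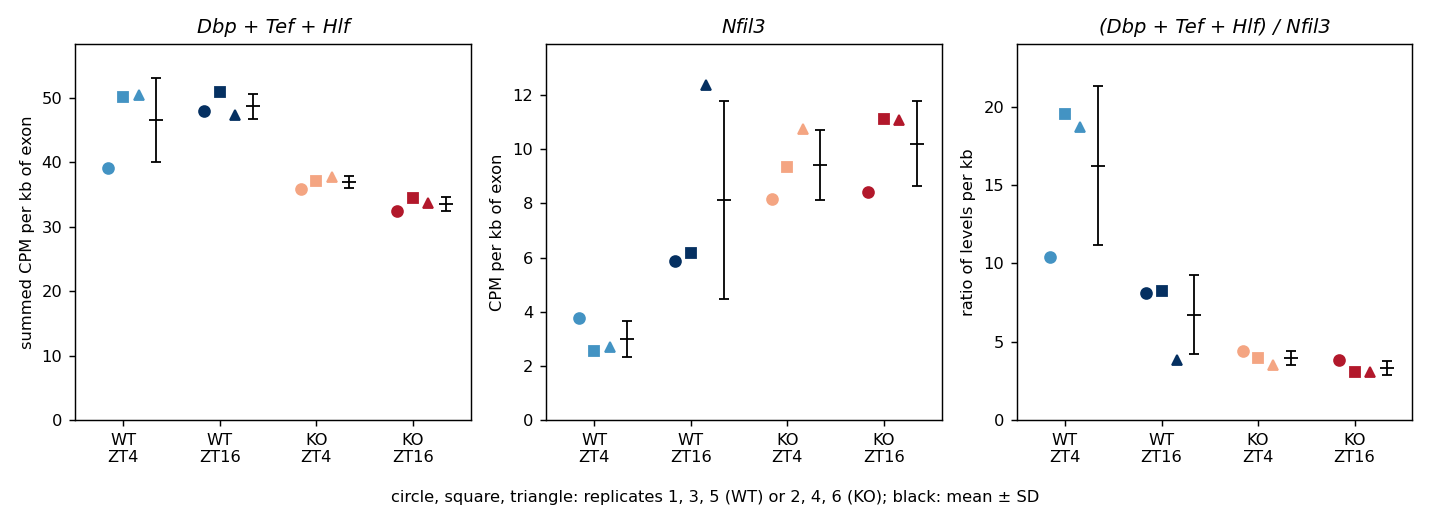
Summed level of Dbp, Tef and Hlf (left), level of Nfil3 (middle), both in CPM per kb of exon, and their ratio (right) in each library of the 4 groups (x axes), with black bars for the mean ± SD. The ratio is 10.4 to 19.6 in WT ZT4 and 3.04 to 4.40 in the 6 KO libraries.

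Genes listed here as linked to PAR bZIP factors were lower in the BMAL1 knockout where they changed. Of 12 listed, 9 could be tested, and at each time 5 fell and none rose: Alas1, Abcb1a, Cyp2a4, Cyp2a5 and Tsku. Their median log2 fold change was -0.77 at ZT4 and -0.69 at ZT16 over the 9, beside 0.00 and 0.02 over all genes. In the same fit 1.66% of all genes were called lower at ZT4 and 1.96% at ZT16. The list was chosen with earlier results of these data known. Its counts and medians therefore describe the listed genes, and whether such genes fell more often than others was not tested. When KO ZT16 replicate 2 was left out, 10 could be tested, and 6 fell at ZT4 and 5 at ZT16, in fits where 15.3% and 31.2% of all genes were called. Alas1, the first enzyme of heme synthesis, had log2 fold changes of -0.59 ± 0.12 at ZT4 (adjusted p = 0.0171), and the ZT16 value was -0.69 ± 0.12 (adjusted p = 0.00472). The cytochrome P450 gene Cyp2a5 had -2.93 ± 0.34 (adjusted p = 0.000393) and -3.20 ± 0.33 (adjusted p = 0.000126). Cyp2a4, at -2.30 ± 0.13 at both times (adjusted p = 2.22e-06 and 1.39e-06), is a close paralog of Cyp2a5, and reads of the pair may have been split or dropped. Pdxk, the pyridoxal kinase gene, Por and Ppara did not pass at either time. Alas1, Cyp2a4 and Cyp2a5 rose from ZT4 to ZT16 in both genotypes. Alas1 rose by 1.47 ± 0.12 in WT (adjusted p = 5.87e-05) and 1.37 ± 0.12 in KO (adjusted p = 0.000404).

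Among 6 tested genes of the related C/EBP bZIP family, 2 rose in the knockout at ZT4, Cebpb (0.98 ± 0.21, adjusted p = 0.0285) and Cebpa (0.49 ± 0.12, adjusted p = 0.0484), and 1 did so with RLE or upper-quartile scaling. At ZT16 none of the 6 was called, and 3 were lower without KO ZT16 replicate 2, a fit in which 31.2% of all genes were called. From ZT4 to ZT16 in WT, 4 of these genes rose, Ddit3, Cebpg, Cebpb and Cebpd, by 0.41 (Cebpg) to 1.69 (Ddit3) on the log2 scale, where 2.87% of all genes were called higher. The count was 5 of the 6 without KO ZT16 replicate 2, in a fit where 33.5% of all genes were called. In KO 1 of the 6 rose, Ddit3 (1.23 ± 0.20, adjusted p = 0.00742), where 5.27% of all genes were called higher. None of the 6 passed the interaction. Of 5 tested HES and HEY repressors, which share the bHLH-Orange structure of the DEC proteins, Hes6 fell in the knockout in the light (-0.54 ± 0.13, adjusted p = 0.0451) and in the dark (-0.54 ± 0.13, adjusted p = 0.0406). The other 4 did not pass between genotypes. Over time in WT, Hey1 (1.22 ± 0.21, adjusted p = 0.00799) and Hes1 (0.56 ± 0.12, adjusted p = 0.0173) rose, where 2.87% of all genes were called higher. In KO Hey1 rose (0.73 ± 0.20, adjusted p = 0.0438), where 5.27% were. Without KO ZT16 replicate 2, 3 of the 5 rose in WT and none in KO. In that fit 33.5% and 8% of all genes were called.

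Few genes around Wee1 and Usp2 were called. None of 10 tested partners of WEE1 in the control of mitosis, such as Cdk1 and the Cdc25 phosphatase genes, was called in any of the 5 comparisons with all libraries. Without KO ZT16 replicate 2, 1 of the 10 was higher and 1 lower in the knockout at ZT4, 1 was higher at ZT16 and 2 fell over time in WT. Of 9 genes that act with USP2 or with the epithelial sodium channel, none was called between genotypes at either time. Without KO ZT16 replicate 2, 1 of the 9 was higher and 1 lower at ZT4, and 5 were higher in the knockout at ZT16. In that fit 15.3% of all genes were called at ZT4, 31.2% at ZT16 and 33.5% over time in WT. Sgk1, a kinase gene induced by aldosterone, rose from ZT4 to ZT16 in WT (1.25 ± 0.19, adjusted p = 0.00397) and in KO (0.74 ± 0.19, adjusted p = 0.0322). In WT it was the only one of the 9 called over time, and without KO ZT16 replicate 2, 2 rose and 3 fell there. In KO, Scnn1b, which encodes a subunit of that channel, also rose (0.32 ± 0.09, adjusted p = 0.0433), and Mdm2, the gene of a ubiquitin ligase, fell (-0.53 ± 0.14, adjusted p = 0.036). With upper-quartile scaling 1 of the 9 rose there and 1 fell.

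In the other core clock genes, 5 of 19 rose and 4 fell in the knockout at ZT4, and 4 rose and 4 fell at ZT16, beside 3.29% and 4.03% of all genes called in either direction. With KO ZT16 replicate 2 left out, 7 rose and 4 fell at each time, where 15.3% and 31.2% of all genes were called. A called interaction was found for Cry1, known as a RORE gene and coding for a repressor of CLOCK and BMAL1 (-2.04 ± 0.20, adjusted p = 0.00134). Its CPM followed that of Nfil3 most closely among genes with an established symbol and a mean of at least 5 CPM, with a Pearson r of log2 CPM of 0.93 over the 12 libraries. Correlations of this kind describe libraries that fall into 4 groups and share the difference between genotypes.

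By the same measure, the genes most like Dbp were Slc2a5, a fructose transporter gene (r = 0.96), the clock repressor gene Nr1d2 (r = 0.96) and Degs2 (r = 0.95). Those most like Tef were Spag9, Lbr and Acadl (r = 0.98, 0.96 and 0.93). Wee1 was followed by Osgin1, Ripk4 and Mid1ip1 (r = 0.97, 0.97 and 0.96), and Usp2 by Sypl2, Mknk2 and Agpat1 (r = 0.95, 0.94 and 0.93). Alkbh1 was also like Nfil3 (r = 0.88), and those most like Bhlhe40 were Gopc, Yrdc and Zcchc7 (r = 0.93, 0.92 and 0.91). Hlf (Fam117a, Stk25 and Piga, r = 0.87, 0.85 and 0.85) and Bhlhe41 (Usp6nl, Desi2 and Cys1, r = 0.86, 0.84 and 0.84) had no gene above 0.9. Within the 8, Dbp and Tef varied together (r = 0.88), as did Bhlhe40 with Usp2 (r = 0.87) and Wee1 with Usp2 (r = 0.85), while Dbp and Nfil3 ran opposite to each other (r = -0.76).

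The order of the group means differed between the genes. Dbp and Tef were lowest in the KO groups and highest in the WT groups. For Dbp the KO groups overlapped each other and lay apart from both WT groups, and WT ZT16 lay apart from WT ZT4. For Tef the WT groups overlapped each other, and KO ZT4 and KO ZT16 each lay apart below them. Nfil3 was lowest in WT ZT4, which lay apart from the other 3 groups, and those overlapped as neighbours. Wee1 and Usp2 were highest in WT ZT16, which lay apart, and their other 3 groups overlapped as neighbours. Bhlhe40 was also highest in WT ZT16, with WT ZT4 lowest and the KO groups between them, overlapping each other. For Hlf and Bhlhe41 each group overlapped the next in the order.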

How the data were processed

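Per the labels' protocols, libraries were made from whole-kidney RNA with a stranded mRNA kit. The authors deposited raw read counts per gene, made with cutadapt 1.2.1, TopHat2 2.0.9 (GRCm38) and HTSeq 0.5.4p3, per the submitters' processing notes. The counting's strand setting and the annotation used were not given in the sources used here. Unassigned reads (no feature 3.50% to 5.96%, ambiguous 0.411% to 0.534%, not uniquely aligned 30.8% to 43.0%) were left out. GENCODE M21 gave symbols and exonic lengths.

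The quasi-likelihood test of edgeR 4.0.16 was fitted on all 12 libraries together (filterByExpr, TMM, 8 residual degrees of freedom), with Benjamini-Hochberg adjustment over 16150 genes. The ± of a log2 fold change is its SE. Log2 CPM used a prior count of 2. The pipeline was tested on simulated data. limma 3.58.1 and DESeq2 1.42.0 served as alternatives. Members and lists were chosen with earlier results of these data known. Their counts and medians, where set beside those of all genes, are therefore descriptions and not tests. Other genes were named by a rule: Arntl, genes sharing exons with a member, the 3 most alike, and up to 4 called per list and comparison by adjusted p. Pdxk, Por, Ppara, Cdk1 and the fifth called gene of a list were named after their values were seen. One gene that this rule names is not reported here. Same-numbered libraries did not deviate together.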

Additional observations from a re-analysis of the deposited data

How the results depend on the processing

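Scaling (RLE, upper quartile), the filter, mitochondrial genes left out, DESeq2, limma voom, an adjusted p under 0.01, only the 6 libraries compared and each library left out were tried. Of the 10 calls among the 8 genes, 6 held in every alternative run (Dbp at both times, Tef and Wee1 at ZT16, Nfil3 at ZT4, Wee1 over time in WT), for which the stricter threshold was applied to counts only. The other 4 were lost in some: Tef at ZT4 and, over time in WT, Nfil3, Bhlhe40 and Usp2. Tef at ZT4 also lost its call with no filter (-0.39, adjusted p = 0.0595). The number called over time in WT, 4 of 8, was 1 at an adjusted p under 0.01 and 1 to 5 with 1 library left out. In the knockout it was 0, and 0 to 1 with 1 library left out. Dbp over time in WT passed with only those 6 libraries (-0.40, adjusted p = 0.0362), and Usp2 at ZT16 with no filter (-0.59, adjusted p = 0.0358).

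Leaving out KO ZT16 replicate 2 and WT ZT16 replicate 5 together was chosen after seeing the data. It gave 5 of 8 called in the knockout at ZT4 and 5 at ZT16 (3 each with all libraries). In that fit 3512 of all genes were called at ZT4 and 3476 at ZT16 (531 and 651 with all libraries). Over time 5 of 8 were called in WT, beside 3589 of all genes, and 1 of 8 in the knockout, beside 2066. The genes called overall depend strongly on KO ZT16 replicate 2: without it they went from 651 to 5099 at ZT16 and from 1050 to 5473 over time in WT, and with only the 6 libraries compared they were 2877 at ZT4 (531 with all libraries), 200 at ZT16 and 36 over time in the knockout (1691 with all). DESeq2 called 18 genes for the interaction and edgeR 3. The cause was not tested.

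Reversed values were all near 0 and not called: Usp2 at ZT4 with RLE scaling (-0.014), upper-quartile scaling (-0.0028), DESeq2 (-0.014) and limma voom (-0.0081), and -0.057 to 0.10 with 1 library left out. With 1 library left out, Bhlhe41 at ZT4 ranged from -0.37 to 0.052, Hlf at ZT16 from -0.15 to 0.014, Bhlhe41 and Usp2 over time in the knockout from -0.053 to 0.32 and from -0.061 to 0.23, and the interactions of Dbp and Bhlhe41 from -0.086 to 0.26 and from -0.33 to 0.091. The Dbp interaction was -0.10 without both libraries. With the replicate block, possible only between times within a genotype, Bhlhe40 in WT lost its call (0.98, adjusted p = 0.0531), and 3 of the 8 were called there. The same-number correlations were -0.27 to 0.05 in WT and -0.05 to 0.00 in KO, so the numbers are not used as pairs. No paired analysis was possible between genotypes because they share no replicate number. Depth limits Bhlhe41 most.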
